A study of Mus musculus with 12 samples.

Results

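Bone marrow of Fancg-/- mice was compared with bone marrow of wild-type mice, with 1 expression array per mouse. The 6 arrays were those labelled Fancg-/- (3) and wild type (3) among the 12 of the study, whose other arrays came from 3 Fancc-/- and 3 doubly deficient (Fancc-/- and Fancg-/-) mice. Cells were flushed from the tibia and femur, neither sorted nor cultured, and each mouse is described as giving its own RNA sample with no pooling. The wild-type mice were C57Bl/6. The strain of the knockout mice, the construction of the Fancg allele, and the age and sex of any group are not given in the sources used here, and no group received a treatment. Per the labels, 2 µg of RNA was amplified for every array except Fancg-/- replicate 3, for which 0.91 µg was used. The question the comparison addresses is how the marrow transcriptome differs when Fancg is missing.

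FANCG is a subunit of the Fanconi anemia core complex, which attaches ubiquitin to FANCD2 and FANCI at DNA crosslinks so that they can be repaired. Inherited loss of core complex genes causes Fanconi anemia in humans, with failing blood production, while mice lacking 1 such gene usually keep near-normal blood counts. Whole marrow holds mainly developing neutrophils, red cell precursors and B-lineage cells, with few stem cells and small amounts of stroma. The signal of a gene in such a mixture depends on how many cells of each type are present and on how much RNA each cell makes, and fewer cells of a type and less RNA per cell cannot be told apart.

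All values below are log2 array signals, so a difference of 1 is a doubling, and values of single arrays are given in the order of replicates 1, 2 and 3. In all, 11908 genes were bright enough to be tested. A gene was called at a limma adjusted p under 0.05, and a gene was counted as not overlapping when its 3 Fancg-/- values lay all above or all below its 3 wild-type values. The arrays were close in overall profile, with correlations of 0.9905 to 0.9946 within wild type, 0.9916 to 0.995 within Fancg-/- and 0.9884 to 0.9943 between them. Array medians ran from 4.79 to 4.87. The tissue label was checked against markers: Camp and Lcn2, granule proteins of maturing neutrophils, averaged 13.86 and 13.54 in wild type and 13.94 and 13.61 in Fancg-/-, near the top of the range, which ran from 2.43 to 14.6. Of 11 skeletal muscle genes, only 5 passed the brightness filter, and none of those had groups that did not overlap. The number of arrays, 3 per group, limits the precision.

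The label was checked first. Fancg read 6.80, 6.86 and 6.86 in wild type and 6.55, 6.00 and 6.64 in Fancg-/-, a difference of -0.44 ± 0.16 (SE, n = 3) that was not called (limma adjusted p = 0.567). All 3 Fancg-/- arrays were below wild type, replicate 2 by most. A second probe set gave 6.92, 6.82 and 6.89 against 6.43, 5.92 and 6.67. The position of these probes relative to the deleted part of the gene is not known, so a remaining signal does not tell whether functional transcript was made. Fancc, another core complex gene, is not targeted in these mice and differed by 0.047 ± 0.13.

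Sex-linked transcripts differed between the groups and among the Fancg-/- arrays. Xist, the RNA that silences an X chromosome in female cells, read 11.30, 12.15 and 12.23 in wild type and 11.31, 7.34 and 10.75 in Fancg-/-. Eif2s3y, a translation initiation factor subunit encoded on the Y chromosome, read 3.04, 3.20 and 2.89 in wild type and 7.64, 9.09 and 5.78 in Fancg-/-. Kdm5d, a Y-linked histone demethylase, read 3.21, 3.08 and 3.27 in wild type and 4.24, 5.22 and 3.35 in Fancg-/-. The wild-type arrays thus had only the X-silencing mark. Fancg-/- replicate 2 had the Y marks with the lowest Xist of both groups, which at 7.34 was still above the array medians (4.79 to 4.87). The libraries labelled Fancg-/- replicates 1 and 3 carried high Xist together with Eif2s3y above every wild-type array, and replicate 3, the array with less RNA, had the highest Fancg and the lowest Eif2s3y of its group. Sex marks and genotype cannot be told apart in this comparison, and the part of these mixed marks in the results was not tested. For that reason, for many lists the counts of members outside the wild-type range are also given without replicate 3, with replicate 2 alone, or in both ways. With fewer arrays more genes clear the range: the share of all genes above and below it was 13.4% and 18.3% without replicate 3, 26.8% and 29.6% with replicate 2 alone, and 18.7% and 14.2% without wild-type replicate 1. These checks of doubted arrays, for gene lists, were added after the values were seen.

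**Figure D1:**
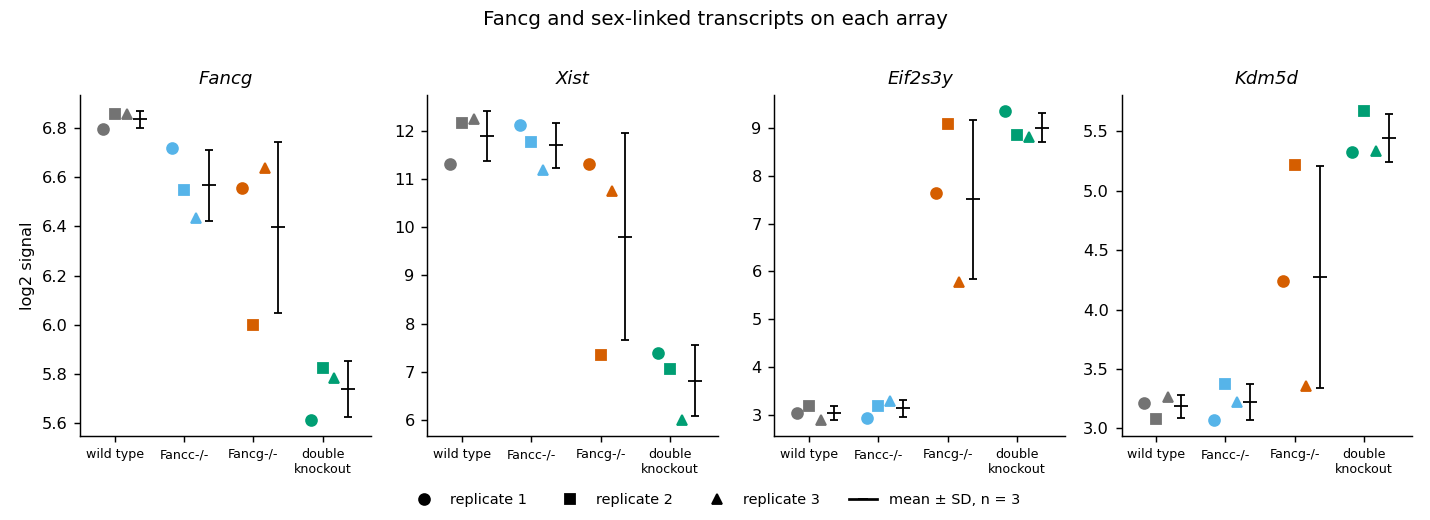
Log2 signal (vertical axes) of Fancg, Xist, Eif2s3y and Kdm5d on each of the 12 arrays by group, with symbols for the replicates and bars for mean ± SD (n = 3). In Fancg-/-, replicate 2 has the lowest Fancg (6.00) and Xist (7.34), while replicates 1 and 3 have Xist at 11.31 and 10.75 and Eif2s3y at 7.64 and 5.78.

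Of the 11908 genes tested, 6 (0.0504%) were called in Fancg-/- against wild type: 1 higher (0.0084%), the Y-linked Eif2s3y (4.46 ± 0.58, adjusted p = 0.0201), and 5 lower (0.042%). Without a correction for the number of genes, 834 (7%) had a p under 0.05, 399 of them higher (3.35%) and 435 lower (3.65%). The groups did not overlap for 1033 genes above wild type (8.67%) and 1025 below it (8.61%), and the median difference over all genes was 0.0093.

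The 5 genes called lower are all autosomal. Trib2, a pseudokinase that steers the degradation of C/EBPα and is active in lymphoid precursors, read 8.53, 8.26 and 7.70 in wild type and 5.56, 6.03 and 6.53 in Fancg-/-. No Fancg-/- array came within 1 unit of the lowest wild-type array, and Trib2 was 0.229 times its wild-type level (-2.13 ± 0.25, adjusted p = 0.0132). A second, dimmer Trib2 probe set gave -0.84, and another, near the bottom of the signal range, 0.13. Dennd5b, a regulator of Rab GTPases in membrane traffic, read 6.14, 6.07 and 6.05 against 4.40, 4.85 and 4.74 (-1.42 ± 0.19, adjusted p = 0.0201). Its 3 other probe sets, mostly below the array median, gave -0.42, -0.43 and -0.18, and the one used was above it on 5 arrays, all of wild type among them, which is how it could enter the test. Myo1e, a membrane-bound unconventional myosin, read 6.39, 6.46 and 6.74 against 5.70, 5.70 and 5.39 (-0.93 ± 0.14, adjusted p = 0.0433). Another Myo1e probe set above the median on 10 arrays gave -0.060, so the fall of Myo1e rests on the probe set chosen.

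Fam214a read 7.31, 7.26 and 7.09 in wild type and 6.30, 6.43 and 6.40 in Fancg-/- (-0.84 ± 0.11, adjusted p = 0.0201). Its second probe set gave -0.78, and in both groups the mice were close to each other. Cd209d, a C-type lectin of the DC-SIGN family, read 5.51, 5.46 and 5.38 against 4.73, 4.61 and 4.62 (-0.80 ± 0.087, adjusted p = 0.012). It was above the array median on 3 arrays only, those of wild type, so it could enter the test only because it was higher there.

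**Figure D2:**
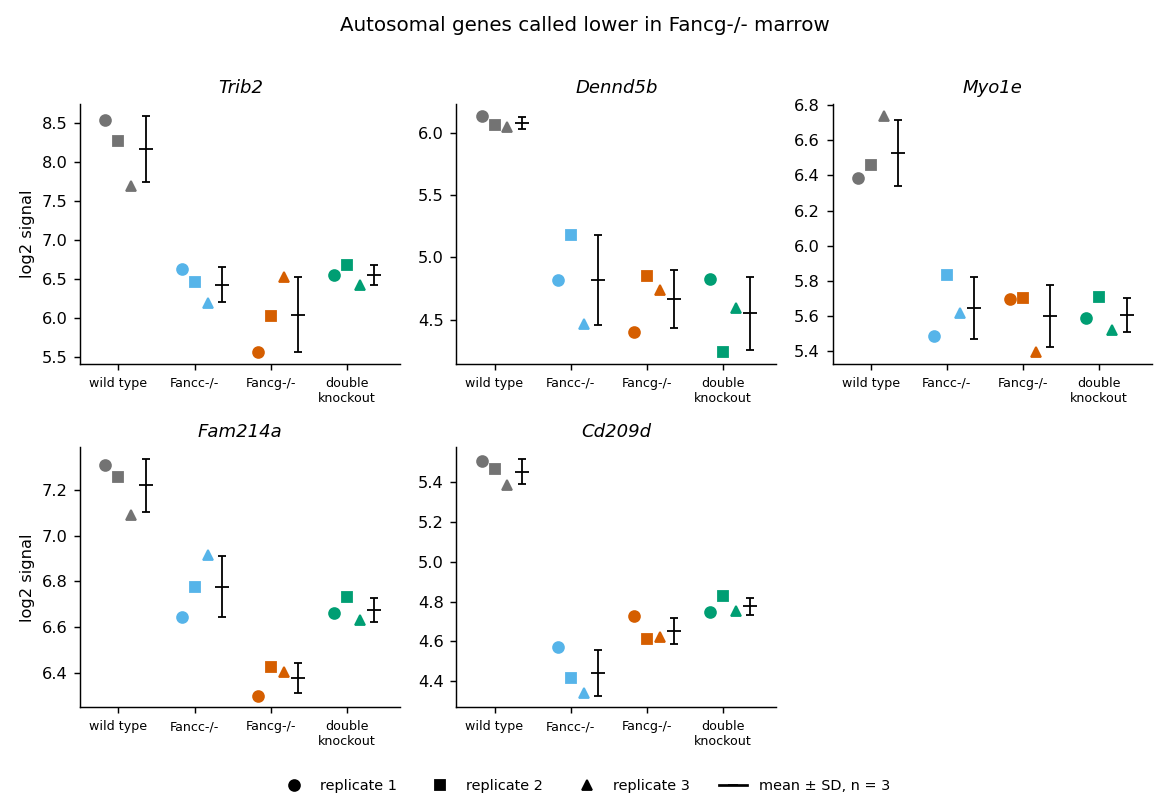
Log2 signal (vertical axes, each with its own scale) of Trib2, Dennd5b, Myo1e, Fam214a and Cd209d on each array by group, with bars for mean ± SD (n = 3). The 3 Fancg-/- arrays lie below the 3 wild-type arrays in each panel, with Trib2 at 5.56 to 6.53 against 7.70 to 8.53.

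These calls sat close to the threshold. Without wild-type replicate 1, wild-type replicate 2 or Fancg-/- replicate 1, none of the 6 remained; without wild-type replicate 3, 2 remained, and without Fancg-/- replicate 2, 4. Without Fancg-/- replicate 3, the array with less RNA, 5 of the 6 remained, and the calls grew to 3 higher and 28 lower. The direction of all 6 was the same in every one of these fits, with Trib2 between -1.89 and -2.37. In a fit of only the 6 arrays compared, 26 genes were higher and 46 lower, the 6 among them. With the Xist or the Eif2s3y level of each array as a covariate, none was called in either direction.

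Genes active in B-lineage cells stood first among the negative differences. Among tested genes with an unadjusted p under 0.01 and no overlap, the 12 lowest values were those of Rag1, Niban3, Bach2, Vpreb3, Ebf1, Trib2, Spib, Akap12, Fcrla, Fcmr, Ifi213 and D13Ertd608e, of which Trib2 alone passed the test over all genes. In a B-cell precursor, RAG1 and RAG2 cut the immunoglobulin genes, DNTT adds bases at the joins, and VPREB1, VPREB3 and IGLL1 help the new heavy chain to reach the surface before a light chain exists. Rag1 read 7.84, 7.37 and 6.94 in wild type and 3.60, 3.77 and 6.53 in Fancg-/- (-2.75 ± 0.60, adjusted p = 0.182). Vpreb3 read 9.98, 9.11 and 9.00 against 5.99, 6.48 and 8.74 (-2.29 ± 0.54, adjusted p = 0.203). Replicates 1 and 2 were far below wild type for both, and replicate 3 was just below the lowest wild-type array.

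Vpreb1, named after its values were seen, showed the split most plainly: it read 8.99, 9.30 and 8.27 in wild type and 5.07, 5.88 and 8.92 in Fancg-/-. Replicate 3 was inside the wild-type range. The same held for Igll1, with 8.82, 8.64 and 8.27 against 6.22, 6.48 and 8.55, and for Dntt, with 8.36, 8.25 and 7.43 against 6.35, 5.96 and 7.56. Of the 7 tested genes of V(D)J recombination and the surrogate light chain, 2 (Rag1 and Vpreb3) lay below the wild-type range, beside 8.61% of all genes, 5 had an unadjusted p under 0.05 with a negative difference, none was called, and the median difference was -1.49. By mouse, the median was -2.35 in replicate 1, -2.10 in replicate 2 and -0.37 in replicate 3, against -0.37 to 0.25 in single wild-type mice. Rag1 was above the array median on 4 arrays only, the 3 of wild type and Fancg-/- replicate 3, so it entered the test through them, and of the 4 members bright on every array, 1 (Vpreb3) lay below. Without replicate 3, 5 of the 7 were called lower (Dntt, Igll1, Rag1, Vpreb1 and Vpreb3), and with replicate 2 alone 5 lay below the range.

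The transcription factors of the B lineage gave a more even picture. EBF1 commits progenitors to the lineage, BACH2 restrains plasma cell fate, SPIB acts in B-cell receptor signalling, and IRF4 acts in light chain rearrangement. Of 12 tested factors, 11 lay below the wild-type range, beside 8.61% of all genes, with none called and a median of -0.77. Of the 10 that were above the array median on every array, so that the filter could not have picked them for their wild-type level, 9 lay below. Bach2 read 8.60, 8.63 and 8.40 in wild type and 5.28, 6.03 and 7.28 in Fancg-/- (-2.35 ± 0.43, adjusted p = 0.114). Ebf1 read 7.42, 7.75 and 7.07 against 4.61, 4.81 and 6.09 (-2.24 ± 0.40, adjusted p = 0.0986), and 3 further Ebf1 probe sets gave -1.27 to -1.79, while the dimmest gave -0.057. Ebf1 was above the array median on 5 arrays only, so it could enter the test because it was bright in wild type. Spib read 9.82, 9.17 and 9.26 against 6.77, 7.26 and 8.58, and Irf4 8.21, 9.02 and 8.32 against 6.57, 7.18 and 7.53. The order of the Fancg-/- mice was the same for these 4 factors, with replicate 1 lowest and replicate 3 nearest to wild type.

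Genes of the B-cell receptor and the B-cell surface lay lower in the same mice. Of 17 tested, 14 lay below the wild-type range and 1 above it (Cd24a, a surface glycoprotein of many immature cells, 0.14), with a median of -1.18 and none called. Over all genes the shares below and above were 8.61% and 8.67%. Of 15 bright on all arrays, 13 lay below. Cd79a, a signalling chain of the receptor, read 10.64, 10.20 and 10.30 in wild type and 8.36, 8.75 and 9.48 in Fancg-/- (-1.52 ± 0.28, adjusted p = 0.114). Blnk, the adaptor downstream of the pre-B-cell receptor, read 9.85, 9.55 and 9.46 against 7.82, 8.04 and 9.01. Tnfrsf13c, the receptor for the survival factor BAFF, read 8.34, 8.15 and 7.96 against 6.54, 6.83 and 7.35, and Fcrla, an Fc receptor-like protein of B cells, 9.10, 8.58 and 8.28 against 6.14, 6.27 and 8.11. Medians by mouse were -1.61, -1.18 and -0.70. Outside the lists, Niban3 (9.16, 8.32 and 8.26 against 5.42, 5.70 and 7.50), the IgM Fc receptor Fcmr (10.38, 10.44 and 10.32 against 7.89, 8.65 and 9.30) and the scaffold protein Akap12 (7.63, 7.24 and 6.83 against 4.56, 5.01 and 6.56) had the same order of mice.

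With the level of Eif2s3y as a covariate, the differences of Rag1 (1.08), Vpreb1 (2.09), Vpreb3 (0.85), Igll1 (1.40), Dntt (0.66), Fcrla (0.62), Akap12 (0.34), Niban3 (0.31) and Blnk (0.14) turned positive, and those of Bach2, Ebf1, Spib, Irf4, Cd79a and Tnfrsf13c stayed negative. With replicate 2 alone, all 12 factors and 15 of 17 receptor and surface genes lay below the wild-type range, where 29.6% of all genes did. Without replicate 3, 3 of the factors (Bach2, Ebf1 and Irf4) and 4 receptor and surface genes (Blnk, Cd79a, Fcrla and Tnfrsf13c) were called lower.

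Genes of antibody-secreting cells showed no common direction. Of 11 tested plasma cell and immunoglobulin genes, 3 lay below the wild-type range (8.61% of all genes did), with a median of -0.060 and none called. Of 8 bright on every array, 2 lay below. The 3 were Sdc1, a surface proteoglycan of plasma cells (-0.77), Mzb1, a chaperone for IgM assembly (10.24, 9.90 and 9.67 against 8.50, 9.26 and 9.27), and Slamf7, a surface receptor (5.47, 5.40 and 5.02 against 4.40, 4.48 and 4.83). Slamf7 was above the array median on 4 arrays only, all of wild type among them, so it entered the test through them.

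MHC class II genes were lower with much less spread between the mice. Class II molecules present peptides to helper T cells on B cells, dendritic cells and macrophages, and CIITA is the coactivator that switches them on. All 9 tested members lay below the wild-type range (8.61% of all genes did), 8 of 8 among those bright on every array. The median was -0.80 and none was called. Medians by mouse were -1.001, -0.76 and -0.74, so replicate 3 was not set apart here as it was for Rag1. H2-Ab1 read 10.88, 10.80 and 10.85 in wild type and 9.72, 9.91 and 9.87 in Fancg-/- (-1.01 ± 0.21, adjusted p = 0.166). H2-Eb1 read 11.77, 11.59 and 11.70 against 10.61, 10.80 and 10.85, and Cd74, the invariant chain, 12.26, 12.45 and 12.50 against 11.33, 11.64 and 11.51. Ciita read 5.96, 5.65 and 5.86 against 4.99, 5.32 and 5.11. In the fit of only these 6 arrays, 6 of the 9 were called lower, Cd74, H2-Ab1 and H2-Eb1 among them. All 9 also lay below without replicate 3 (all genes: 18.3%), with replicate 2 alone (29.6%) and without wild-type replicate 1 (14.2%).

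Red cell genes lay on the other side. The membrane of the red cell is held by a skeleton of spectrin anchored through ankyrin (ANK1) and band 3, with tropomodulin (TMOD1) capping its short actin filaments and adducins (ADD2) joining spectrin to actin. Of 16 tested membrane and skeleton genes, all bright on every array, 15 lay above the wild-type range, beside 8.67% of all genes. None was called, and the median difference was 0.71. Cldn13, a claudin of red cell precursors, read 9.44, 9.20 and 9.10 in wild type and 10.30, 10.39 and 10.20 in Fancg-/- (1.05 ± 0.25, adjusted p = 0.222). Ank1 read 9.07, 9.04 and 9.07 against 10.12, 10.37 and 9.68, Tmod1 7.48, 7.17 and 6.96 against 8.34, 8.14 and 7.84, and Add2 6.75, 6.73 and 6.69 against 7.78, 7.71 and 7.25. Tspan33, a tetraspanin, read 10.21, 9.93 and 9.68 against 10.79, 10.85 and 10.71. By mouse the median was 0.84, 0.85 and 0.59, with single wild-type mice between -0.16 and 0.20. The 1 gene that overlapped was Epb42, encoding protein 4.2 (0.71). In the fit of the 6 arrays alone, 6 were called higher, Add2, Ank1, Cldn13, Rhd and Tspan33 among them. With Eif2s3y as a covariate, Ank1 (-0.019) and Kel (-0.39) turned negative, and the list median was 0.29.

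Among the regulators of the red cell program, Gata1 and Gfi1b were nearly the same in the 3 Fancg-/- mice, while Klf1, another master factor, differed from the wild-type mean by 0.55, 0.92 and 0.83. GATA1 is the master factor of red cell and platelet precursors, and EPOR is the receptor through which erythropoietin keeps them alive. Gata1 read 8.19, 8.05 and 7.94 in wild type and 8.71, 8.75 and 8.76 in Fancg-/- (0.68 ± 0.20, adjusted p = 0.358). Epor read 7.70, 7.32 and 7.20 against 8.03, 8.25 and 7.96, and Gfi1b, a repressor acting with GATA1, 8.18, 8.11 and 7.75 against 8.49, 8.56 and 8.56. Of 12 tested factors and receptor genes, 7 lay above the wild-type range (8.67% of all genes did) and none below. The median was 0.42 (0.42, 0.40 and 0.44 by mouse). None was called. Without replicate 3 and with replicate 2 alone, 7 lay above (all genes: 13.4% and 26.8%) and 1 below (all genes: 18.3% and 29.6%). The 1 below, 8.33% of the list and under the share of all genes, was the repressor Bcl11a. It read 0.013 above the wild-type mean in replicate 3.

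Heme enzymes lay higher too. Of 17 tested genes of heme synthesis and iron, 10 lay above the wild-type range (8.67% of all genes did). The median was 0.46, with medians by mouse of 0.43, 0.44 and 0.45. None was called. Fech, which inserts iron into the ring, read 11.26, 11.07 and 10.96 against 11.75, 11.76 and 11.63 (0.62 ± 0.17, adjusted p = 0.322). Urod and Alad, earlier enzymes of the path, read 11.03, 10.59 and 10.43 against 11.38, 11.42 and 11.26, and 9.70, 9.38 and 9.10 against 10.17, 10.04 and 10.10. Glrx5, which hands on iron-sulfur clusters, read 11.32, 11.11 and 11.02 against 11.65, 11.71 and 11.64. The heme-binding protein Hebp1, outside the list, read 8.91, 7.54 and 8.33 against 9.22, 9.29 and 9.37, and the Fancg-/- mice were close to each other for all 5 of these genes. No globin was among the 7 tested genes of the globin and red cell enzyme list. Of these 7, 4 lay above the range (8.67% of all genes did), with a median of 0.30 and none called. These were the carbonic anhydrases Car1 (10.57, 10.05 and 9.88 against 10.84, 10.76 and 11.08) and Car2 (12.81, 12.69 and 12.60 against 13.15, 13.16 and 13.08), pyruvate kinase Pklr (0.30) and the peroxide scavenger Prdx2 (11.74, 11.40 and 11.37 against 12.11, 12.14 and 12.01). Wild-type replicate 1 was the highest wild-type array for Fech, Urod, Alad, Glrx5, Hebp1, Car1, Car2 and Prdx2. Without it, 13 of 17 heme and iron genes lay above the range, where 18.7% of all genes did. Leaving out the highest array lowers the bound. Without Fancg-/- replicate 3 and with replicate 2 alone, 13 of the 17 also lay above (all genes: 13.4% and 26.8%). In both settings Abcb10 alone lay below (all genes: 18.3% and 29.6%), with -0.44, -1.02 and 0.40 by mouse.

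**Figure D3:**
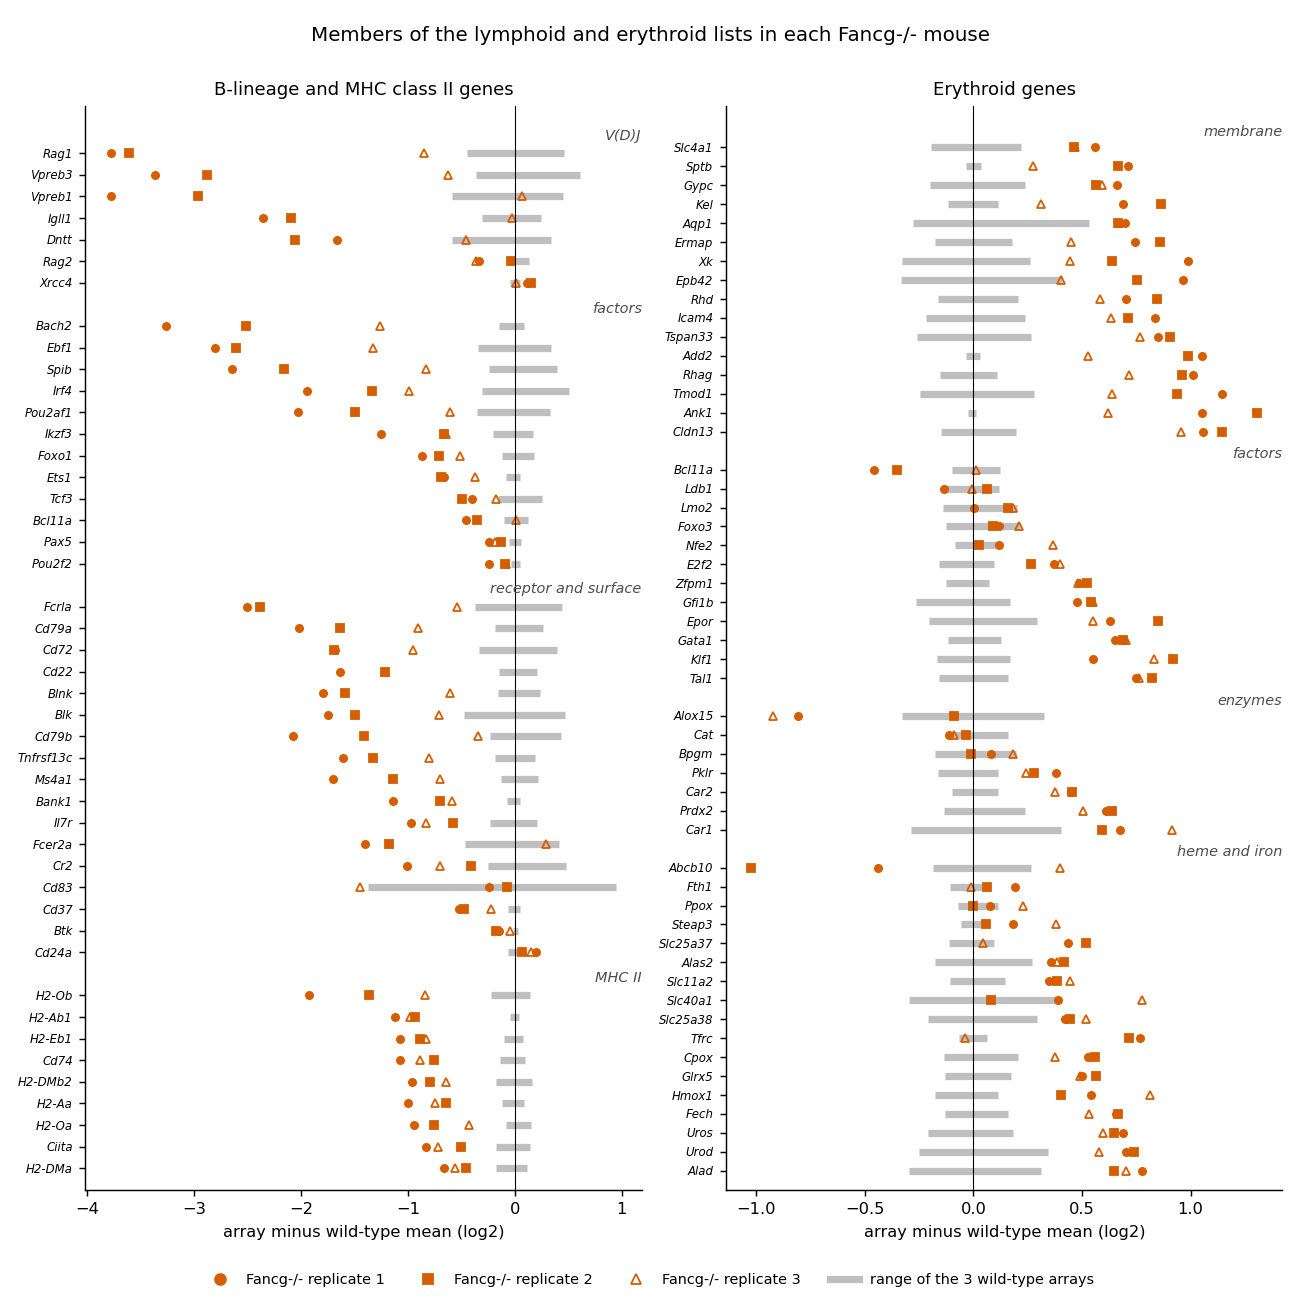
Each tested member of the B-lineage and MHC class II lists (left) and of the erythroid lists (right): the 3 Fancg-/- arrays as points, as log2 difference from the wild-type mean (horizontal axes), over a grey bar for the range of the 3 wild-type arrays. For Rag1, Vpreb1, Vpreb3 and Igll1, replicate 3 sits near or inside the wild-type range while replicates 1 and 2 lie below -2, and 15 of 16 membrane genes have all points above their grey bar.

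The promoters of these genes are shown because members of each list lay on the same side of wild type and known factors of both lineages have short recognition sequences. Windows of 150 bases (100 before to 50 after the start site) are from RefSeq on GRCm38.p6, read in the direction of the gene. Capitals mark AGATAA or its reverse complement TTATCT, the core bound by GATA factors, in 4 red cell genes, and CCCNNGGG, the inverted repeat recognised by EBF1, in 2 B-lineage genes. They were chosen from the promoters whose window held a match. Windows of the red cell genes Alas2, Cpox, Pklr and Steap3 and the B-lineage genes Bank1 and Foxo1 also held one and are not shown. The 4 red cell genes shown lay above the wild-type range and the 2 B-lineage genes below it, while Steap3 overlapped it (0.21).
Epor, chr9:21963527-21963676, minus strand: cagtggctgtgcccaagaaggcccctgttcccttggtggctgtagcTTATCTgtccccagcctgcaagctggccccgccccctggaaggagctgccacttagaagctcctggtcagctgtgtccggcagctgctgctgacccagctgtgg
Icam4, chr9:21029332-21029481, plus strand: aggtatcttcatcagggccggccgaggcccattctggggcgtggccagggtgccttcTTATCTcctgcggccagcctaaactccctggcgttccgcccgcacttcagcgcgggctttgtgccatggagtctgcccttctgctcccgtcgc
Rhd, chr4:134864436-134864585, plus strand: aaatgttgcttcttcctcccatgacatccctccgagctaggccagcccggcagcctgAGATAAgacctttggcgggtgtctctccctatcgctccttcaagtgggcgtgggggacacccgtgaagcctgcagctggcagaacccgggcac
Kel, chr6:41704276-41704425, minus strand: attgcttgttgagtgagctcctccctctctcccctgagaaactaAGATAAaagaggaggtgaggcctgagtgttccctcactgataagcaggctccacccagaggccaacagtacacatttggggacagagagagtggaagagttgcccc
Cd22, chr7:30878979-30879128, minus strand: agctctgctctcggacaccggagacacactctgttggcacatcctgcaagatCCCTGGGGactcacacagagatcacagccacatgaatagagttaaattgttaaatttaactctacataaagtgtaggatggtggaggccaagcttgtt
Spib, chr7:44532022-44532171, minus strand: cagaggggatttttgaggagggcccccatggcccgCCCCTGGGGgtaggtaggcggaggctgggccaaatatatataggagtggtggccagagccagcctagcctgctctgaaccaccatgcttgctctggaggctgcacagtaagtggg

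Counted from the start site, the GATA core began at -54 in Epor, -43 in Icam4 and in Rhd, and -56 in Kel. Icam4, an adhesion molecule of red cell precursors, read 7.67, 7.41 and 7.22 in wild type and 8.27, 8.14 and 8.07 in Fancg-/-. Rhd, a Rh blood group protein, read 10.20, 9.96 and 9.84 against 10.70, 10.84 and 10.58, and the blood group protein Kel 9.29, 9.18 and 9.06 against 9.87, 10.04 and 9.49. Over the longer windows of the table (250 bases before to 50 after the start), 22.0% of 50 windows of the erythroid genes tested held AGATAA on either strand, against 6.72% of 12298 windows of all genes tested and 11.2% of the 32851 windows of the table. In the windows of B-lineage genes the share was 3.12%. Windows were found for 38 of 52 erythroid genes.

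CCCNNGGG, which reads the same on both strands, was in 15.6% of 32 windows of the B-lineage genes, against 18.1% of windows of all genes tested and 13.7% of the table, and 29 of 36 B-lineage genes had a window. In the erythroid windows it was 22.0%. Cd22, an inhibitory co-receptor of B cells, read 10.49, 10.13 and 10.23 in wild type and 8.65, 9.07 and 9.07 in Fancg-/-. In the Spib window 2 overlapping matches share bases. The shares are descriptions of the letters in these windows, and binding was not measured.

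Stroma and macrophage genes varied between mice within each group. Of 23 planned genes of stroma, bone and vessel, 15 were tested, with a median of 0.68 and medians by mouse of 1.32, 0.61 and 0.24. Of these, 3 lay above the wild-type range (Mmp13, the bone phosphatase Alpl and the matrix protein Mgp) and 1 below (Pecam1, of endothelium and blood cells), and none was called. Alpl differed by 0.15, Mgp by 1.57 and Pecam1 by -0.46. Mmp13 was above the array median on 4 arrays only, the 3 of Fancg-/- and 1 of Fancc-/-, so it entered the test through them. Of the 9 stroma genes bright on every array, none lay above the range and 1 below. The shares of all genes tested were 8.67% above and 8.61% below. Mmp13, a collagenase of bone and cartilage cells, read 3.84, 3.07 and 2.92 in wild type and 7.57, 5.27 and 5.18 in Fancg-/- (2.73 ± 0.92, adjusted p = 0.493). Cxcl12, the chemokine of marrow reticular cells that retains B-cell precursors and stem cells, read 7.50, 4.60 and 4.91 against 8.95, 7.48 and 6.85. The fat cell hormone Adipoq read 6.09, 3.86 and 3.45 against 7.40, 6.35 and 5.54, and the osteoclast protease Ctsk 7.57, 5.99 and 6.04 against 7.41, 8.38 and 7.80. Wild-type replicate 1 was the highest of its group for these 4 genes, and for Cxcl12, Adipoq and Ctsk it reached into the Fancg-/- range. Without it, 12 of the 15 lay above, where 18.7% of all genes did. Leaving out an array that is the highest for such genes lowers the bound. Without Fancg-/- replicate 3, 10 lay above (13.4% of all genes), and with replicate 2 alone 11 did (26.8%).

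The complement chains and a scavenger protein of tissue macrophages had the same spread. C1qa read 6.51, 4.98 and 5.43 in wild type and 7.93, 6.08 and 7.21 in Fancg-/-, C1qb 7.27, 5.39 and 6.59 against 8.75, 6.84 and 7.74, and C1qc 6.36, 4.33 and 5.47 against 7.63, 5.81 and 7.09. Cd5l read 6.40, 4.84 and 5.55 against 6.99, 6.34 and 7.66. The groups overlapped for all 4, with wild-type replicate 1 above Fancg-/- replicate 2 in each, although their mean differences were 1.36 to 1.46. Over the whole monocyte and macrophage list, 4 of 19 lay below the wild-type range (Ly86, Adgre1, Cx3cr1 and Irf8, with differences of -0.26, -0.45, -0.66 and -0.70) and 1 above (the heme-degrading enzyme Hmox1, 0.58). The median of the list was 0.053 and none was called, while 8.61% of all genes lay below and 8.67% above. The part of these stroma and macrophage signals in the other results was not tested.

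**Figure D4:**
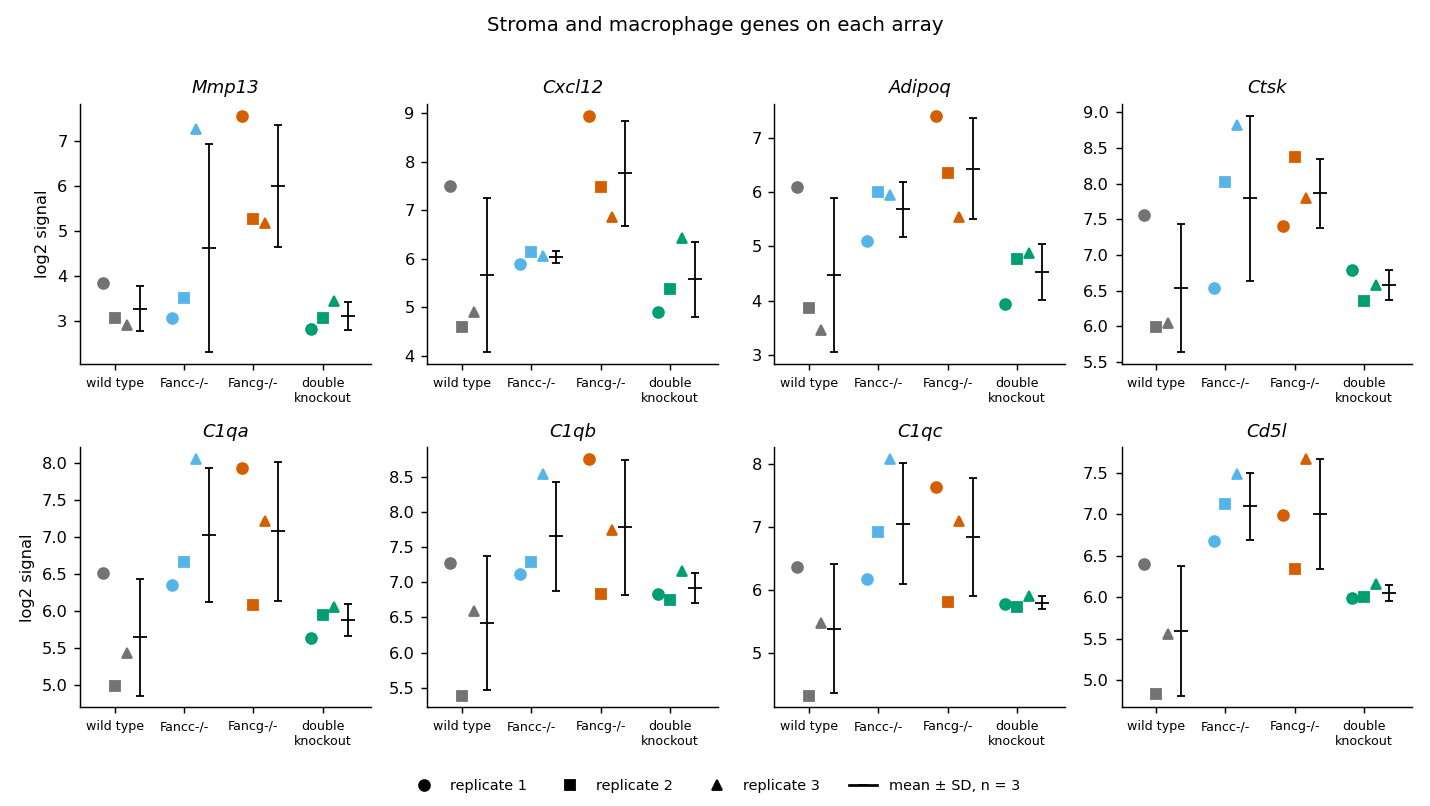
Log2 signal (vertical axes, each with its own scale) of 4 stroma and 4 macrophage genes on each array by group, with bars for mean ± SD (n = 3). Wild-type replicate 1 stands above its 2 group mates in all panels, at 7.50 for Cxcl12 against 4.60 and 4.91, and Fancg-/- means are higher than wild-type means in each.

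Among progenitor genes, 8 of 17 tested lay below the wild-type range (8.61% of all genes did) and none above. The median was -0.41 (-0.43, -0.35 and -0.32 by mouse) and none was called. Sox4, a factor needed in early B-cell progenitors, read 10.30, 10.23 and 9.95 in wild type and 8.78, 8.31 and 8.88 in Fancg-/- (-1.50 ± 0.37, adjusted p = 0.236). Flt3, the cytokine receptor of lymphoid-primed progenitors, read 7.69, 7.70 and 7.81 against 7.30, 7.19 and 7.18, and Myb, a factor of immature cells of all lineages, 11.37, 11.44 and 11.31 against 10.95, 10.81 and 10.75. Replicate 3 stood with the other mice of its group for these 3 genes. Without it 10 of 17 lay below (18.3% of all genes), and with replicate 2 alone 12 did (29.6%).

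Neutrophil genes had small differences that varied in sign between the mice. None of 15 genes of secondary granules and mature neutrophils lay outside the wild-type range, with a median of 0.044 and medians by mouse of 0.086, -0.11 and 0.21. With replicate 2 alone, 11 of the 15 lay below the range (73.3%, against 29.6% of all genes), and without replicate 3 none did. Leaving out Fancg-/- replicate 1, Fancg-/- replicate 3 or wild-type replicate 1 also turned the median negative. Of 10 genes of primary granules, 3 lay below (8.61% of all genes did), with a median of -0.049. Those 3 were Mpo (13.45, 13.51 and 13.46 against 13.39, 13.40 and 13.32), the protease Elane, with a difference of -0.11, and Cebpa, the factor that starts granulocyte development and a target of Trib2-directed degradation at the protein level. Cebpa read 9.25, 9.36 and 9.15 against 8.53, 8.75 and 8.96 (-0.51 ± 0.15, adjusted p = 0.358). None of these was called.

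Of 13 tested eosinophil, basophil and mast cell genes, 3 lay below the wild-type range (8.61% of all genes did) and none above. The median was -0.26 and none was called. The 3 are basophil and mast cell genes, but most tested members of that kind overlapped wild type: Mcpt8, Gata2, Hdc, Cma1, Il4 and Kit. Fcer1a and Ms4a2, chains of the high-affinity IgE receptor, read 9.19, 9.62 and 9.63 against 8.18, 8.50 and 8.42, and 9.03, 8.99 and 9.34 against 8.34, 8.66 and 7.94. The mast cell protease Cpa3 read 9.37, 9.69 and 9.56 against 8.97, 9.31 and 8.40. The eosinophil genes Prg2, Prg3, Epx and Il5ra overlapped wild type, with replicate 2 above the wild-type mean in each and replicates 1 and 3 below. With replicate 2 alone, 3 of the 13 lay above and 3 below (23.1% each), under the shares of all genes (26.8% above and 29.6% below). Of 19 T and NK genes, 6 lay below and 2 above (the T-cell receptor chains Cd3d, 0.25, and Cd3g, 0.24), with a median of 0.021 and none called. The 2 above were 10.5% of the list, near the 8.67% of all genes, and 8.61% of all genes lay below. The 6 included Gzma, a cytotoxic granule protease (6.93, 7.21 and 6.79 against 5.97, 5.76 and 5.76), the NK receptor Ncr1 (5.67, 5.19 and 5.59 against 4.52, 4.79 and 5.04), the factor Tbx21 (6.24, 6.31 and 6.26 against 5.80, 5.71 and 5.43) and the pore protein Prf1 (5.79, 5.52 and 5.76 against 5.36, 5.43 and 5.15). Of 11 platelet lineage genes, 1 lay above (Selp, an adhesion receptor of platelet granules, 0.49) and 1 below (Itga2b, the platelet integrin chain, -0.38), and none was called. Each was 9.09% of its list, near the shares of all genes (8.67% above and 8.61% below).

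DNA repair genes showed small differences. Of 19 Fanconi pathway genes tested, 1 lay below the wild-type range, Fancg itself, and 2 above (10.5%, near the 8.67% of all genes), with a median of 0.053 and none called. Fancd2, which cleared the range by under 0.01, read 7.61, 7.36 and 7.34 against 7.76, 7.64 and 7.61, and Fanci 6.86, 6.79 and 6.93 against 7.13, 7.06 and 7.02. Fancl, the ubiquitin ligase subunit, differed by 0.31 ± 0.24 with overlapping groups. Of 21 genes of homologous recombination and crosslink repair, 1 lay above (Blm, a helicase, 0.43) and 1 below (Atm, a kinase that signals DNA breaks, -0.40), with a median of 0.023. Each was 4.76% of its list, beside 8.67% of all genes above and 8.61% below. Brca1 differed by 0.14. None was called, and with Eif2s3y as a covariate Blm (-0.037) and Brca1 (-0.019) turned negative. None of 17 p53 targets lay outside the wild-type range (median 0.0005). Phlda3, the target with the smallest p of this list, read 5.76, 5.84 and 6.04 against 6.43, 6.11 and 5.94.

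Replication and mitosis genes had small differences, with none called. Of 22 replication genes, 5 lay above the wild-type range (8.67% of all genes did) and none below, with a median of 0.12. These were Orc1, Tk1, Gins1 (0.36), Cdc6 (0.26) and Cdt1 (0.12, and -0.041 with Eif2s3y as a covariate). Of 19 mitosis genes, 3 lay above (Ccna2, Birc5 and Cdca8, by 0.36, 0.22 and 0.23) and none below, with a median of 0.18. Medians by mouse were 0.12, 0.17 and 0.042 for replication and 0.10, 0.20 and 0.22 for mitosis, while single wild-type mice ran up to 0.092 and 0.18. Orc1, the large subunit of the origin recognition complex, read 6.65, 6.86 and 6.70 against 7.45, 7.26 and 7.36 (0.62 ± 0.12, adjusted p = 0.129), which set it apart from the rest of its list. Thymidine kinase Tk1 differed by 0.34, the chromatin assembly subunit Chaf1b by 0.30 and the cyclin Ccnb2 by 0.37. Without wild-type replicate 1, 13 of 19 mitosis genes and 11 of 22 replication genes lay above the range, where 18.7% of all genes did. As leaving out a wild-type array can only lower the upper bound, these counts could not have fallen. Without Fancg-/- replicate 3 these counts were 6 and 11 (13.4% of all genes), and with replicate 2 alone 8 and 12 (26.8%).

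Stress genes were examined because unrepaired damage and reactive aldehydes are studied in Fanconi marrow. Mt2, a metal-binding metallothionein, read 7.92, 8.56 and 8.32 in wild type and 9.27, 9.38 and 9.37 in Fancg-/- (1.07 ± 0.28, adjusted p = 0.302). Mt1 read 9.34, 9.50 and 9.38 against 9.71, 10.10 and 9.89, and Mtf1, the zinc-sensing factor that drives both, differed by 0.31. Of 6 metallothionein and zinc genes, 3 lay above the wild-type range (Mt1, Mt2 and Mtf1) and 1 below (the zinc importer Slc39a10, -0.40, and 0.062 with Xist as a covariate), with a median of 0.22. Asns, asparagine synthetase, read 8.61, 8.63 and 8.41 against 9.70, 9.53 and 9.39 (0.99 ± 0.17, adjusted p = 0.0986). Trib3, a pseudokinase induced by the same amino acid response, read 5.17, 5.19 and 5.51 against 6.09, 6.06 and 5.84, so that within the Tribbles family Trib2 fell, Trib3 lay above the wild-type range and Trib1 differed by -0.23 with overlapping groups. Over 18 genes of the integrated stress and unfolded protein responses, 5 lay above (Asns, Trib3, Atf5, 0.56, and the folate enzymes Mthfd2, 0.43, and Shmt2, 0.29) and 1 below (the chaperone Hsp90b1, -0.36), with a median of 0.033. Of all genes tested, 8.67% lay above and 8.61% below.

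Of 19 glutathione, Nrf2 and peroxide genes, 8 lay above the wild-type range (8.67% of all genes did), with a median of 0.13. Among them were Gclm, the modifier subunit of the first glutathione enzyme (10.20, 9.76 and 9.81 against 10.60, 10.68 and 10.37), Prdx3 (0.38) and Txnrd1 (0.22). Of 8 aldehyde genes, 2 lay above (8.67% of all genes did), the aldehyde dehydrogenases Aldh1a1 (0.47) and Aldh1a7 (0.66), with a median of 0.0020. All 22 immediate early genes had negative differences, with a median of -0.41, and 4 lay below the wild-type range (Jund, Dusp2, Zfp36 and Gadd45b). Jund read 12.01, 12.50 and 12.21 against 11.70, 11.78 and 11.56, and the phosphatase Dusp2 9.57, 9.72 and 9.81 against 8.70, 9.11 and 9.11, while Zfp36 differed by -0.41 and Gadd45b by -0.32. The medians of this list in single wild-type mice ran from -0.47 to 0.31, and without wild-type replicate 1, its lowest array, 20 of 22 lay below, where 14.2% of all genes did, as leaving out the lowest array raises the bound. Of 16 interferon response genes, 1 lay below (Bst2, -0.70, and 0.33 with Eif2s3y as a covariate), with a median of -0.095. Of 17 inflammatory cytokine genes, 2 lay below (Tgfb1, -0.36, and Birc3, -0.20), with a median of -0.26. Of 17 ribosomal protein genes, 3 lay below (Rpl12, -0.53, Rpl37, -0.41, and Rps27, -0.17), with a median of -0.033, and none above in these 3 lists. Of 21 respiratory chain genes 6 lay above and none below, with a median of 0.12. For these lists and the immediate early genes, the shares of all genes were 8.61% below and 8.67% above. The interferon and cytokine genes below were 6.25% and 11.8% of their lists, near the share of all genes. With replicate 2 alone, 10 of 17 ribosomal, 6 of 16 interferon and 7 of 17 cytokine genes lay below (29.6% of all genes), and 10 of 21 respiratory chain genes above (26.8%). Over all 33 lists, Trib2 was the only member called.

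The remaining genes of the largest differences belong to no list. Tjp1, a tight junction scaffold, read 5.34, 5.26 and 5.04 in wild type and 6.56, 6.87 and 6.43 in Fancg-/- (1.41 ± 0.39, adjusted p = 0.335), the largest positive difference of an autosomal gene among those with an unadjusted p under 0.01 and no overlap, and Tlcd4, a membrane protein, read 6.10, 5.95 and 5.66 against 7.32, 7.05 and 6.96. Crip2 (0.98) and Pdia2, a protein disulfide isomerase (0.94), also lay above the wild-type range. Ifi213, a member of the interferon-inducible p200 family, read 6.86, 6.15 and 6.79 against 4.79, 4.70 and 5.34 (-1.66 ± 0.32, adjusted p = 0.129), and D13Ertd608e 7.50, 7.46 and 7.36 against 6.18, 5.34 and 5.89. The Fancg-/- mice were close to each other for Tjp1 and Tlcd4.

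**Figure D5:**
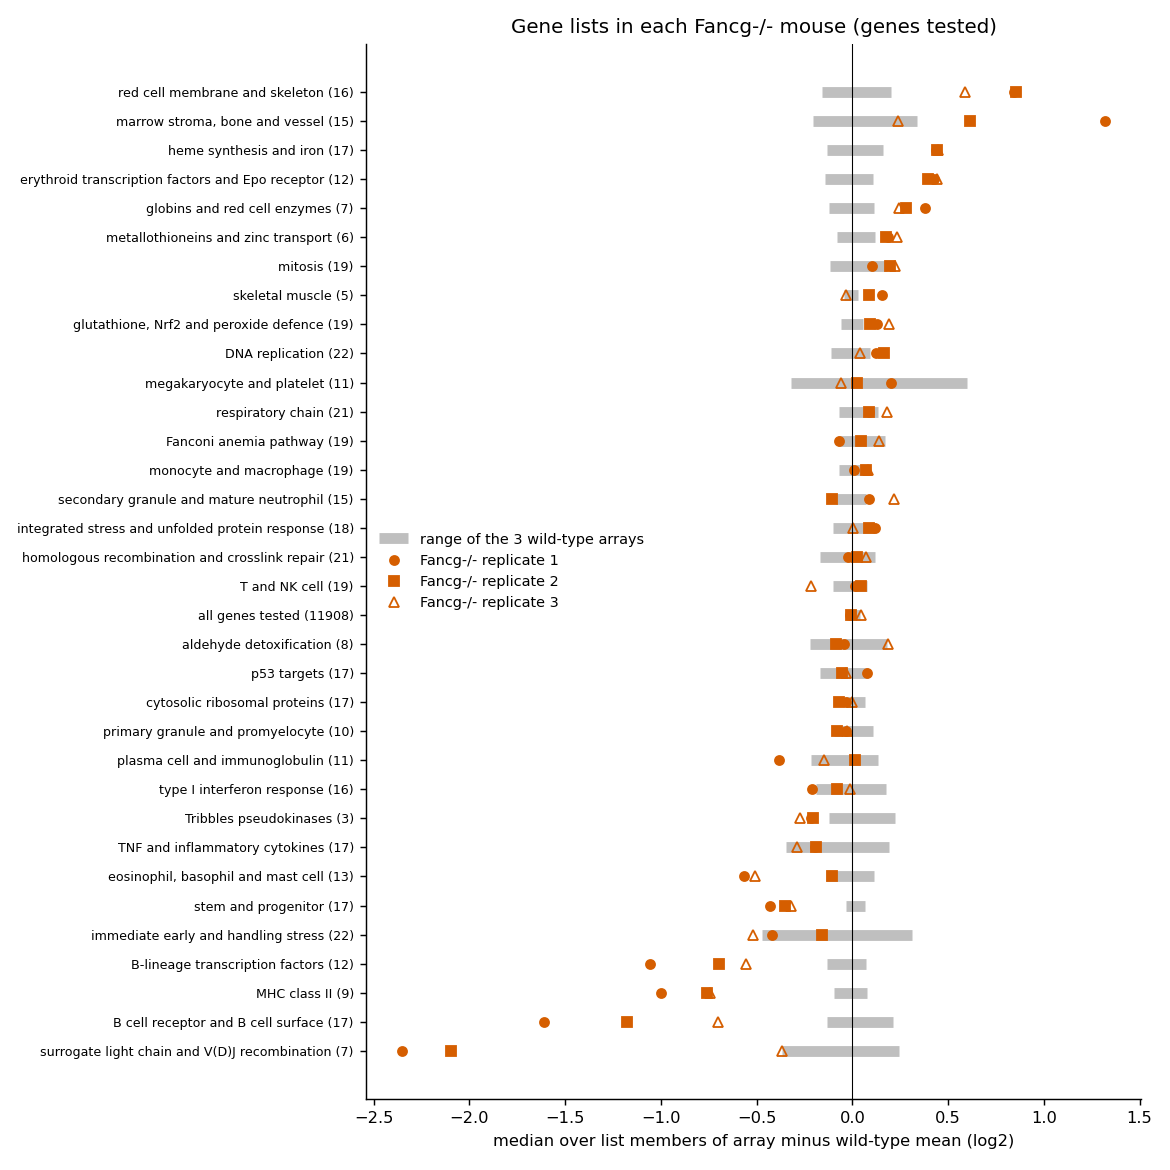
Median over the tested members of each of the 33 gene lists (number tested in brackets) of the log2 difference from the wild-type mean, for each Fancg-/- array (points), with grey bars for the range of the 3 wild-type arrays. In replicates 1 and 2 the V(D)J list lies lowest, the stroma list has the highest value in replicate 1 (1.32), and replicate 3 parts from the others most in the V(D)J list (-0.37 against -2.35 and -2.10).

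Direct tests asked where Fancg-/- marrow differs from that of the other knockouts. Against Fancc-/-, 13 genes (0.109%) were called, 3 higher (0.0252%) and 10 lower (0.084%). Besides Eif2s3y (4.36 ± 0.58, adjusted p = 0.028), which follows the sex marks, Cst3 and Rgs2 were higher in Fancg-/-. Cst3, a cysteine protease inhibitor made by monocytes and dendritic cells, read 11.72, 11.62 and 11.65 in Fancg-/- and 10.66, 11.11 and 10.93 in Fancc-/- (0.76 ± 0.12, adjusted p = 0.0369). Rgs2, a brake on G protein signalling, read 11.58, 11.74 and 11.65 against 10.98, 11.11 and 11.09 (0.60 ± 0.086, adjusted p = 0.0369). In wild type Cst3 averaged 11.75 and Rgs2 12.03, so Fancg-/- lay nearer to wild type for both.

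Among the 10 lower genes, Bex4 read 6.46, 6.56 and 6.40 in Fancg-/- against 7.92, 7.83 and 8.16 in Fancc-/- (-1.50 ± 0.19, adjusted p = 0.0247), with 5.97 as its wild-type mean. Mllt3, a chromatin reader of the super elongation complex, read 6.48, 5.95 and 6.23 against 7.50, 7.27 and 7.75, and Mkrn1, a ubiquitin ligase, 11.44, 11.31 and 11.46 against 12.28, 12.08 and 12.60. Mt2 read 9.27, 9.38 and 9.37 against 11.44, 10.24 and 11.57 (-1.74 ± 0.28, adjusted p = 0.05, just inside the threshold). For Armc8 the probe set used gave -1.59 ± 0.24 and its 4 other probe sets between -0.12 and 0.11, whereas all 6 Mkrn1 probe sets lay between -0.75 and -1.17. Alas2, of the heme and iron list and X-linked like Bex4, was also called lower (-0.84 ± 0.12, adjusted p = 0.0369), as was Slc25a39 (-0.77 ± 0.097, adjusted p = 0.0247). From wild type, Alas2 differed by 0.39 in Fancg-/- and 1.22 in Fancc-/-. Without Fancc-/- replicate 1 or Fancg-/- replicate 1 no gene was called, and without Fancg-/- replicate 2 or replicate 3, 1 gene was. Without Fancc-/- replicate 2, 32 genes were called, and without Fancc-/- replicate 3, 51.

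Against the double knockout, 0 genes (0%) were called with limma, while 1714 had an unadjusted p under 0.05, and the smallest adjusted p was 0.155. That was for Fnip2, a partner of the nutrient sensor folliculin, with 7.86, 7.58 and 7.71 in Fancg-/- and 1.26 ± 0.18 more in the double knockout. Prom1, a membrane glycoprotein of progenitors, was 1.03 lower there (-1.03 ± 0.18, adjusted p = 0.174). Without double-knockout replicate 1, 993 genes were called, and without Fancg-/- replicate 2, 1 was. The B-lineage genes described above were not called in either direct test.

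The 3 knockout comparisons with wild type use the same 3 control mice, so values set side by side are not independent. For Trib2 the difference from wild type was -2.13 in Fancg-/-, -1.74 in Fancc-/- and -1.62 in the double knockout, and for Dennd5b it was -1.42, -1.26 and -1.53. Myo1e gave -0.93, -0.88 and -0.92, Cd209d -0.80, -1.01 and -0.67, and Fam214a -0.84, -0.44 and -0.54. None of the direct tests of Fancg-/- against either group passed for these 5 genes. Medians of the V(D)J list were -1.49 in Fancg-/-, -2.47 in Fancc-/- and -2.58 in the double knockout, those of the class II list -0.80, -1.30 and -0.87, and those of the red cell membrane list 0.71, 1.13 and 0.77. By mouse, the V(D)J median in Fancg-/- was -2.35, -2.10 and -0.37, with replicate 3, the array with less RNA, set apart. The stroma list gave 0.68, 0.39 and 0.11, and the metallothionein and zinc list 0.22, 0.24 and 0.91.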

How the data were processed

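The authors deposited log2 values for 45101 probe sets on each of 12 arrays. RMA, which corrects background, equalizes the signal distributions of the arrays and summarizes each probe set, and Partek are named in the submitters' processing notes. Versions are not given in the sources used here. Of the probe sets, 34945 carried 1 gene symbol in the platform annotation, 932 several and 9160 none; 64 were controls. The 34741 with a match in the GRCm38.p6 gene table kept their symbols. Each of 18193 genes was represented by its single-symbol probe set with the highest mean over the 12 arrays and tested if that was above the array median on at least 3 arrays; 6285 were too dim. Because RMA forces equal signal distributions, all differences are relative to the other genes.

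Tests used limma 3.58.1 (R 4.3.3) and 1 model of 4 group means over 12 arrays (8 residual degrees of freedom), with a variance trend, 2-sided tests and Benjamini-Hochberg adjustment over 11908 genes. The model was tested on simulated data. SD is over 3 mice and SE is from the model. The mice are described as separate animals, and the mixed sex marks of Fancg-/- replicates 1 and 3 were not resolved.

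Genes named are Fancg, Fancc and sex-linked genes, all genes called against wild type, the 12 largest differences in each direction with unadjusted p under 0.01 and no overlap (predicted genes passed over), up to 4 members of each of 33 lists by p, and the leading genes of the direct tests. Vpreb1, Cd22, Icam4, Rhd, Kel, Alas2, Slc25a39 and the further members named to account for a count or a choice were added after their values were seen. Members and lists were chosen with earlier results of these data known, and 62 planned list genes had no single-symbol probe set. Alternatives covered the filter, the probe set, scaling, the variance model, array weights, the arrays fitted, the replicate number, sex-linked covariates and leaving out arrays.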

Additional observations from a re-analysis of the deposited data

Results flagged for a closer look

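The direct comparison of the single knockouts called 13 genes, each a gene whose difference between Fancg-/- and Fancc-/- was tested itself in the model over 12 arrays (limma, Benjamini-Hochberg over all genes). Fancg-/- was lower than Fancc-/- by a log2 difference of -1.74 for Mt2, -1.59 for Armc8, -1.50 for Bex4, -1.28 for Mllt3 and -0.92 for Mkrn1. It was higher by 0.76 for Cst3, 0.60 for Rgs2 and 4.36 for the Y-linked Eif2s3y. All 3 Fancg-/- arrays lay on 1 side of the 3 Fancc-/- arrays for each of these genes.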

How the results depend on the processing

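Against 1 gene higher and 5 lower in Fancg-/- versus wild type, array weights gave 114 and 163, and a fit of only the groups compared 26 and 46. Either sex-linked covariate gave 0 and 0, no variance moderation 0 and 2, the filter at the percentile 75 left 1 lower, the mean of all probe sets gave 9 lower, and unique probe sets 2 lower. Fancg-/- replicate 2 alone (its spread taken from the other groups) gave 2 and 3. Leaving out single arrays gave 0 to 3 higher and 0 to 28 lower. Against 13 genes called versus Fancc-/-, either covariate, no moderation and the fit of only the groups compared gave 0, array weights 38, median centring 3, the mean of probe sets or no variance trend 1, unique probe sets 2, replicate 2 alone 2, and single arrays left out 0 to 51. Against 0 versus the double knockout, array weights gave 2250, the fit of only the groups compared 2, and single arrays left out 0 to 993. The 2058 genes with no overlap became 1332 with the filter at the percentile 75, 6714 with replicate 2 alone and 2760 to 3918 without single arrays. The cause of these shifts was not tested.

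The replicate number as a block gave 2 higher and 3 lower, 3 of the 6 calls remaining, and 7 genes versus Fancc-/-. Same-numbered wild-type and Fancg-/- arrays correlated at -0.27, -0.06 and -0.37 in their deviations from the group means. Deviations from a mean of 3 arrays are tied to each other, so these values cannot decide whether the numbers pair the mice. For wild type with Fancc-/- the values were 0.16, 0.15 and 0.16, and with the double knockout -0.079, -0.14 and -0.0075.

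With Eif2s3y as a covariate, differences turned sign for Rag1 (1.08), Vpreb1 (2.09), Vpreb3 (0.85), Igll1 (1.40), Dntt (0.66), Fcrla (0.62), Akap12 (0.34), Niban3 (0.31), Blnk (0.14), Ank1 (-0.019), Kel (-0.39), Blm (-0.037), Brca1 (-0.019), Prdx3 (-0.013), Alpl (-0.11), Cdt1 (-0.041), Bst2 (0.33), Cx3cr1 (0.22), Irf8 (0.075), Ly86 (0.48), Prg2 (0.042), Prg3 (0.055), Sdc1 (0.17), Fancg (0.45), Kdm5d (-1.25) and Xist (1.90). With Xist as a covariate, Alpl (-0.019), Bcl11a (0.045) and Slc39a10 (0.062) turned. Armc8 turned to -0.087 with the mean of probe sets and -0.059 with unique ones. With replicate 2 alone, Camp (-0.0050), Lcn2 (-0.032), Prom1 (-0.18), Epx (0.22), Il5ra (0.10), Prg2 (0.025) and Prg3 (0.21) turned. Without single arrays, Fancc ran from -0.024 to 0.12, Epx from -0.35 to 0.014 and Prom1 from -0.018 to 0.18. Signal over background limits the dim genes: 6285 were not tested.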
